A study of Homo sapiens with 8 samples.

Results

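The genes described are 46 that build, license, feed and guard the replication fork. They were named by function, with earlier results of these data known. The helicase CMG gave 11 subunits, other MCM proteins 3, and the polymerases and primase 7. The sliding clamp, its loader and the single-strand binding protein RPA gave 6. Origin licensing gave 8, ribonucleotide reductase 2, and checkpoint and fork factors 9. They are 46 of 19970 protein-coding genes on the autosomes and X. Each was followed as a stretch of DNA, its gene body or, for the 26 genes shorter than that, a 50 kb window centred on it. The assay, scEdU-seq, maps newly made DNA in single cells: EdU, a thymidine analogue, is built into DNA during a pulse, and the labelled fragments are captured and sequenced cell by cell. It reads when the DNA of these genes was copied and how much label it took, and says nothing of their expression. RPE-1 hTERT cells, retinal pigment epithelial cells immortalised with telomerase, were used as wild type (WT) and with CFAP20, a protein of cilia and flagella, knocked out (CFAP20-KO). Both genotypes were given 10 µM EdU for 15 min with no other treatment, fixed in 70% ethanol and sorted into 8 plates that each held both.

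A cell starts S phase with origins already licensed: ORC, CDC6 and CDT1 load rings of MCM2 to MCM7 on DNA while CDK activity is low. CDC45 and the GINS subunits then turn the ring into the active helicase, primase and polymerase alpha start each strand, polymerases epsilon and delta extend them, and ATR and CHEK1 hold back further origins when forks slow. Replication timing is the order in which regions are copied, and DNA rich in active genes is usually copied first.

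The plates held 1746074 to 4181841 fragments, and 2430 cells, 1290 WT and 1140 CFAP20-KO, had the minimum of 1000 autosomal molecules set here. Genotype was read from the treatment column of the deposited files, because the genotype field of the labels names CFAP20-KO for every plate. The labels do not say whether the knockout is 1 clone or whether plates are separate cultures. All p-values below therefore weigh plate-to-plate spread, which may be technical. Labelled DNA carries no expression markers, so the cell type could not be checked. WT cells held 11050 ± 2709 molecules and CFAP20-KO cells 8232 ± 1834 (SD, n = 8 plates), lower in CFAP20-KO on 8 of 8 plates. Of 378 well barcodes, 377 occurred on all plates, and cells were told apart by plate and barcode. The window of CFAP20 itself differed between genotypes by a log2 value of -0.56 ± 0.34 (SE; limma adjusted p = 0.552), and labelled DNA does not show whether the gene is edited.

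Many of these genes are regulated by E2F factors, which switch on S-phase genes, so their promoters were read for the E2F-type letters TTTCCCGC, TTTCGCGC, TTTGCCGC and TTTGGCGC, on both strands and with overlaps allowed. RefSeq (GRCh38.p14) gave at least 1 promoter of 300 bases, from 250 before to 50 after the start, for 39 of the 46 genes. MCM4, MCM5, GINS4, POLD3, RPA2, RPA3 and DONSON are the others. At least 1 match was present in 19 of the 39, or 48.7%, against 5.41% of 15812 genes. The following 60-base stretches lie upstream of 8 of the 19, are written along the gene's strand and carry the matches in capitals. They are shown because the same letters stand before early genes (MCM3, MCM7, CDT1), genes called neither way (MCM6, ORC3, POLA2, PCNA) and a later one (RFC3).
MCM3: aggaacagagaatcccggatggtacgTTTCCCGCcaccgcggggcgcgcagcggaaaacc
MCM6: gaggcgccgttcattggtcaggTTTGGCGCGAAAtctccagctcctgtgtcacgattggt
MCM7: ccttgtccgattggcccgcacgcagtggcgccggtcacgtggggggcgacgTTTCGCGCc
CDT1: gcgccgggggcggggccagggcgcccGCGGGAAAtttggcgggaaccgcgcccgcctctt
ORC3: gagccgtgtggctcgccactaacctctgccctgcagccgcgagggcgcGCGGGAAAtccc
POLA2: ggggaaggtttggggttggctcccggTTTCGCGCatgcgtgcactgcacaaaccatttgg
PCNA: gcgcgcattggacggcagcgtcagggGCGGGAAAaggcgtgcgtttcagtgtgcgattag
RFC3: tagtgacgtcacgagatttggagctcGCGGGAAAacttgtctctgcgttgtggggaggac
They lie at chr6:52284883-52284942 (MCM3, minus strand), chr2:135876496-135876555 (MCM6, minus), chr7:100101398-100101457 (MCM7, minus), chr16:88803728-88803787 (CDT1, plus), chr6:87590075-87590134 (ORC3, plus), chr11:65261883-65261942 (POLA2, plus), chr20:5126648-5126707 (PCNA, minus) and chr13:33818068-33818127 (RFC3, plus). The letters were present in 5 of 14 genes called earlier and 2 of 7 called later by the timing test described next. The median number of CG pairs in the promoter was 28 in these genes and 24 over all genes. Where 1 of these genes had several promoters, the value is that of the promoter with the most CG pairs. A match is a description of the letters, and binding was not measured.

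Of the 44 genes that could be timed, 18 were called earlier than the median gene, 18 neither way and 8 later, and the later ones included subunits of complexes with early members (ORC4, ORC5, POLD1, RPA3, RFC3 and RRM1). Cells were ranked along S phase from 0 (early) to 1 (late) by where their label lay, and the timing of a gene is the mean rank of the cells of a plate, weighted by their molecules in its window. It was taken for genes with at least 10 molecules on every plate, which 44 of the 46 passed. CDC6 and CLSPN, with 5 and 9 molecules on their lowest plate, were not timed. Median timing was 0.221 over the 44 genes and 0.234 over 16843 genes, and 29 of the 44 lay below the latter. The calls of 18 earlier and 8 later were made against the median gene of the same plate (0.197 to 0.2995) at a limma adjusted p under 0.05. Of all genes, 33% were called earlier and 36.3% later. With only the 914 cells of at least 5000 molecules, 27 of 40 genes were earlier and 7 later, where 44% and 42.4% of all genes were. The genes were chosen with earlier results of these data known, so these counts describe them and were not tested as a group.

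**Figure D1:**
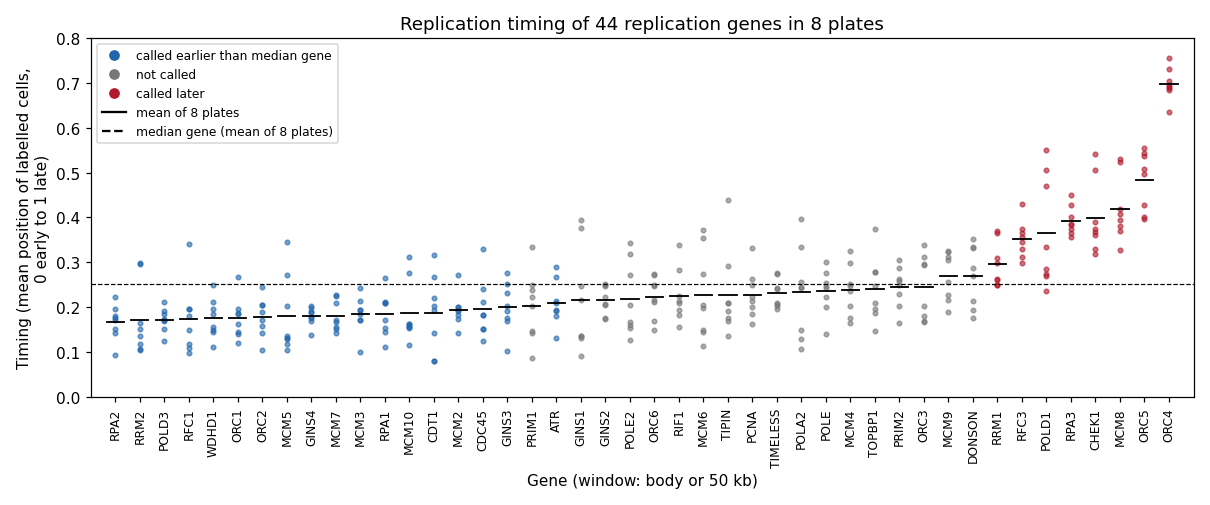
Timing (vertical axis, 0 early to 1 late) of the 44 timed genes, ordered by their mean. Points are the 8 plates, short lines their means and the dashed line the mean over plates of the median gene; blue genes were called earlier, red later. Most genes lie between 0.1 and 0.3, and ORC4 lies apart from all others at 0.634 to 0.755.

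The helicase had the lowest median timing of the 7 groups. Of its 11 genes, 7 were called earlier than the median gene, none was called later, and their median was 0.197. GINS4, a GINS subunit that bridges MCM and CDC45, was the steadiest, with 0.138, 0.184 and 0.202 as its lowest, median and highest plate. MCM7, a ring subunit, ran from 0.142 through 0.170 to 0.228 and was also below the median gene on 8 of 8 plates. MCM2, MCM3, MCM5, CDC45 and GINS3 were the others called earlier, with means from 0.180 to 0.200. In windows of at least 200 kb the call of MCM3 was lost (-0.0221, limma adjusted p = 0.129). MCM4, MCM6, GINS1 and GINS2 had means of 0.216 to 0.237 and did not pass the test. MCM6 ranged from 0.113 to 0.371 and GINS1 from 0.0900 to 0.393, so their plates spread across the median gene. CDC45, which joins the ring to form the active helicase, was called at an adjusted p of 0.0296, which became 0.0539 to 0.0975 without plate 2, 3, 4, 7 or 8.

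MCM8, which with MCM9 forms a separate helicase used in recombination, had a later mean timing (0.419) than any of MCM2 to MCM7. The lowest MCM8 plate lay below the highest of MCM5 (0.346) and MCM6 (0.371), and MCM8 was not tested against the ring subunits. Its lowest, median and highest plates were 0.327, 0.401 and 0.531, all later than the median gene, and its mean difference was 0.167 ± 0.0276 (SE; limma adjusted p = 0.000114). Its partner MCM9 lay at 0.269 ± 0.0537 (SD, n = 8) and was not called. MCM10, which helps to start the helicase, was early at 0.187 ± 0.0683.

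Among polymerases, primase, clamp and loader, subunits of 1 complex differed in timing. POLD3, an accessory subunit of polymerase delta, was among the 4 earliest genes, with a lowest, median and highest plate of 0.125, 0.173 and 0.212. POLD1, the catalytic subunit of the same enzyme, had 0.236, 0.310 and 0.551. The plates of POLD1 had the widest spread of the 44 genes (SD 0.124, beside 0.116 for GINS1), with 0.507, 0.551 and 0.469 on plates 3, 5 and 6 and 0.236 to 0.335 on the others, yet all 8 lay above the highest of POLD3. POLD1 was called later by 0.114 ± 0.0375 (SE; limma adjusted p = 0.0156). That call was lost with every cell weighted equally (0.00345, adjusted p = 0.907) and, with 20 molecules required per plate, the difference was 0.0748 (adjusted p = 0.0682). The other polymerase and primase genes, POLA2, PRIM1, PRIM2, POLE and POLE2, had means from 0.203 to 0.245 and none was called.

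RPA binds single strands as a trimer, and its 3 genes divided in the same way. RPA2 was the earliest of all 44, at 0.0926, 0.174 and 0.223 for its lowest, median and highest plate. RPA1 was early at 0.184 ± 0.0490, a call that had an adjusted p of 0.0526 without plate 6 and 0.0522 without plate 8. RPA3, the smallest subunit, had 0.357, 0.384 and 0.450, and its plates did not overlap those of RPA2 or RPA1. In the clamp loader, RFC1 lay at 0.0985, 0.165 and 0.342, with plate 8 alone above the median gene, and RFC3 at 0.299, 0.351 and 0.429. The plates of RFC1 and RFC3 overlapped only through that plate. PCNA, the sliding clamp, was at 0.228 ± 0.0528 and was not called.

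Origin licensing held the widest range. ORC1, the largest subunit of the origin recognition complex, and ORC2 were early at 0.175 ± 0.0455 and 0.177 ± 0.0436, both below the median gene on 8 of 8 plates. ORC3 and ORC6 were near it at 0.245 and 0.223. ORC5 had 0.397, 0.502 and 0.555 as its lowest, median and highest plate, and was later than the median gene by 0.231 ± 0.0246 (SE; limma adjusted p = 1.18e-06). ORC4 was the latest of all, with 0.634, 0.693 and 0.755, a difference of 0.446 ± 0.0185 (adjusted p = 2.63e-11). No plate of ORC4 or ORC5 overlapped one of ORC1 or ORC2, nor did those of ORC4 and ORC5 overlap each other. Of all timed genes, 91.2% were earlier than ORC4 and 78.1% earlier than ORC5. CDT1, which loads the ring, was early at 0.188 ± 0.0840 on 151 molecules in all, and its adjusted p of 0.0213 became 0.0566 to 0.0696 without plate 1, 5 or 7.

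The subunits of ribonucleotide reductase, which makes deoxynucleotides, lay on opposite sides of the median gene. RRM2, the small subunit, was early with 0.105, 0.143 and 0.298 for its lowest, median and highest plate. RRM1, the large subunit, had 0.249, 0.281 and 0.369, and the groups overlapped through plates 7 and 8 of RRM2. The later call of RRM1 was weak: 0.0442 ± 0.0177 (SE; limma adjusted p = 0.0387), with adjusted p-values of 0.0513 to 0.118 without plate 1, 2, 3, 4, 5 or 7, and a value of -0.0233 (adjusted p = 0.166) with equal weight per cell.

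Among checkpoint and fork factors CHEK1 stood alone as late. CHEK1, the kinase that ATR activates, had 0.318, 0.371 and 0.542 as its lowest, median and highest plate, above the median gene on 8 of 8 (difference 0.147 ± 0.0211 SE, limma adjusted p = 3.02e-05). ATR itself was at 0.209 ± 0.0499, and no plate of ATR reached the lowest of CHEK1. ATR was called earlier at an adjusted p of 0.0373, which became 0.0603 to 0.101 without plate 2, 4, 5, 6 or 7. WDHD1, which ties polymerase alpha to the helicase, was the other early one at 0.175 ± 0.0437. TIMELESS and TIPIN, a fork protection pair, TOPBP1, an activator of ATR, DONSON, a helicase assembly factor, and RIF1, a regulator of timing itself, had means from 0.225 to 0.269 and none was called.

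The ordered cells were then divided into 4 stages of equal cell number, and the share of a gene's molecules in each was divided by that of all autosomal molecules, so that 1 is the genome's average. This profile is a description and carries no test. ORC1 and MCM3, both called earlier, had 2.42 ± 0.368 and 2.35 ± 0.349 in stage 1 and 0.0953 ± 0.108 and 0.172 ± 0.0449 in stage 4 (SD, n = 8). ORC6, called neither way, had 2.17 in stage 1 and 0.196 in stage 4. The later genes had their highest stage at different points. RRM1 and POLD1 were highest in stage 1, at 1.83 ± 0.253 and 1.565 ± 0.499, with 0.293 and 0.576 in stage 4. RFC3 and MCM8 were highest in stage 2 at 2.11 ± 0.780 and 2.04 ± 1.17, RPA3 was level over stages 2 and 3 at 1.75 and 1.76, and ORC5 peaked in stage 3 at 2.03 ± 0.633. ORC4 rose from 0.290 ± 0.113 to 0.989, 1.45 and 1.47 ± 0.295, and 694 of its 1137 molecules lay in stage 4. CHEK1 was broad, with 1.296, 1.45, 0.746 and 0.675. CDC6 and CLSPN, too thin for a timing on every plate, had 2.16 ± 0.535 and 2.32 ± 0.567 in stage 1 on 176 and 362 molecules.

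**Figure D2:**
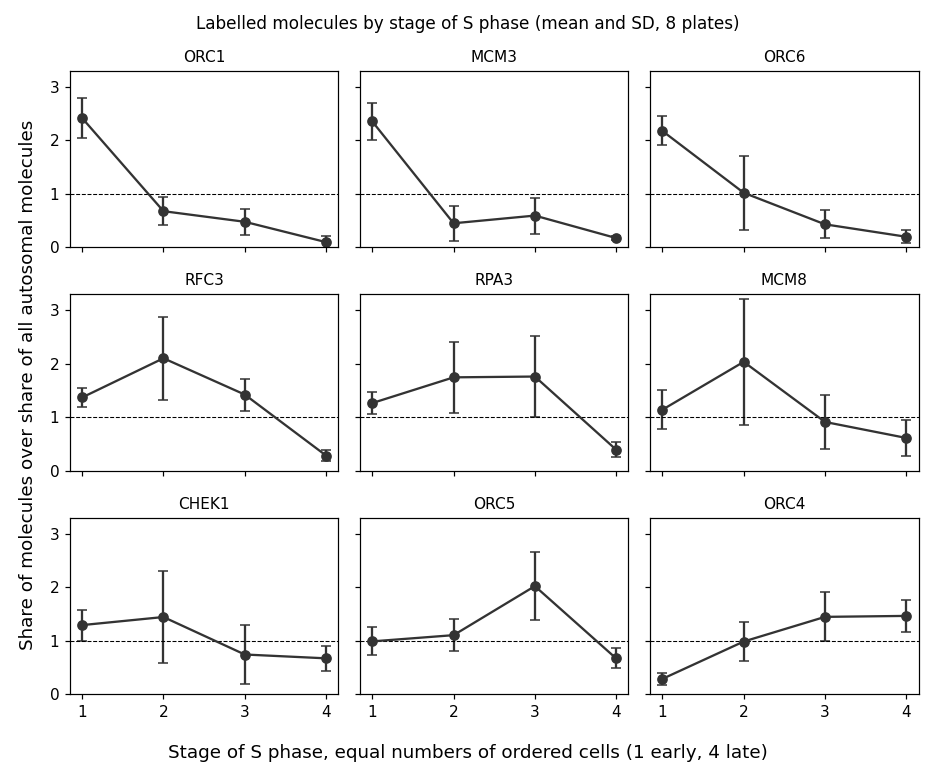
Share of each gene's molecules in 4 stages of S phase, equal numbers of ordered cells (horizontal axis, 1 early to 4 late) over the share of all autosomal molecules (vertical axis, dashed line at 1) for 9 genes. Points are means and bars SD over 8 plates; ORC1, MCM3 and ORC6 fall from above 2, ORC5 peaks in stage 3 and ORC4 rises to 1.47.

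Many of the 46 genes were copied before the DNA around them, as were many genes elsewhere. The timing of each window was compared with that of its flanks, 250 to 750 kb from its centre on both sides. By limma, 23 of the 44 genes were earlier than their flanks and 3 later, where 43.2% and 15.8% of all genes were. With equal weight per cell, 31 of 38 genes were earlier and 1 later, where 66.4% and 16.8% of all genes were. The median difference was -0.0545 for these genes and -0.0309 for all genes. The helicase held 9 of the 23, among them MCM3 (-0.373 ± 0.0207 SE, adjusted p = 6.17e-09), MCM6 (-0.352 ± 0.0349) and GINS1 (-0.270 ± 0.0277). The call of GINS2 (-0.0430, adjusted p = 0.0286) had adjusted p-values of 0.0694 to 0.0764 without plate 4, 6 or 7, and that of GINS4 was lost with cells of at least 5000 molecules (-0.0298, adjusted p = 0.0892).

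MCM3 lies at a steep step, since its lower-coordinate flank had a timing of 0.779 and its upper one 0.191. MCM6 was flanked by 0.393 and 0.730, and RRM1 by 0.261 and 0.767. Flanks differed by more than 0.3 in 10 of the 46 genes (MCM3, MCM5, MCM6, POLD1, POLE, POLE2, PRIM2, ORC6, RRM1 and TOPBP1), against 18.9% of 19430 genes, a share close to that of all genes. ORC6 had the greatest local difference, -0.584 ± 0.0187, but its lower flank, towards the centromere, held 75439 molecules at 0.840 while the upper one held 4346 at 0.348. That flank was filled by 2 bins of 100 kb with 42900 and 33085 molecules, where the other bins drawn around ORC6 held 678 to 1094. Both flanks were pooled by molecules, so these 2 bins carried most of the weight in the local value of ORC6. The value was not recomputed without them. ORC6 itself lay at 0.223, beside 0.348 in the upper flank.

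The 3 genes later than their flanks were ORC4, ORC5 and CHEK1. ORC4 was later by 0.200 ± 0.0179 (SE; limma adjusted p = 3.96e-07) and sat on a local late peak: timing was 0.717 ± 0.0369 (SD, n = 8) in the 100 kb bin just above its centre, 0.444 at 150 kb below and 0.219 at 550 kb above. ORC5 was later by 0.0678 ± 0.0207 (adjusted p = 0.0120) and lay on the rising side of a late peak that reached 0.754 ± 0.0440 at 250 kb above and fell to 0.170 at 750 kb. With equal weight per cell the ORC5 value was -0.0205 (adjusted p = 0.320). CHEK1 was later by 0.0643 ± 0.0236 (adjusted p = 0.0311), and adjusted p-values were 0.0537 to 0.0861 without plate 2, 3, 4 or 7. The CHEK1 call was also lost with cells of at least 5000 molecules (0.0218, adjusted p = 0.320) and with equal weight per cell (0.00638, adjusted p = 0.728). MCM8, late against the median gene, was earlier than its flanks (-0.0929 ± 0.0248 SE, adjusted p = 0.00511; with equal weight per cell -0.0396, adjusted p = 0.0847), with a peak of 0.768 at 350 kb above it.

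**Figure D3:**
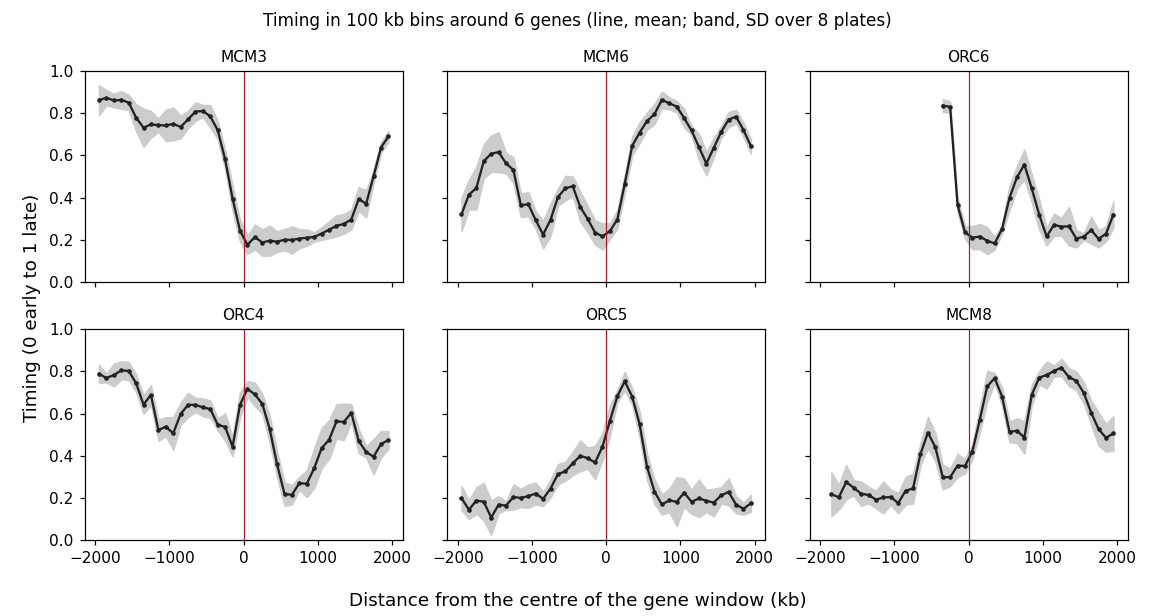
Timing (vertical axis, 0 early to 1 late) in 100 kb bins up to 2 Mb on both sides of 6 genes, by distance in kb from the centre of the window (red line). Lines are means and bands SD over 8 plates; MCM3 and MCM6 lie at the foot of steps to late DNA, ORC4 on a late peak, ORC5 on the rising side of one and MCM8 beside one, and no bins are drawn where the ORC6 profile meets the centromere.

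Genes close together on a chromosome could differ in timing. PCNA and MCM8 lie 824 kb apart on chromosome 20 with means of 0.228 and 0.419, and their plates overlapped through the highest of PCNA (0.331) and the lowest of MCM8 (0.327) alone. PRIM1 and TIMELESS, 282 kb apart on chromosome 12, had 0.203 and 0.231, and GINS3 lay 263 kb from CFAP20 on chromosome 16 with 0.200 beside 0.210. Genes that were late also held more label per kb. On a log2 scale over the median window, all 8 later genes were above 0 (ORC4 highest at 0.94 ± 0.33 SD), and 14 of the 18 earlier ones were below it, with CDT1 at -1.08 ± 0.42. All genes called later had a median of 0.58 and all called earlier -0.19, so the same difference ran through the whole genome. The 50 kb windows of short genes can take in neighbours, which were not counted. Over a much wider reach, 500 kb to both sides of the window's centre, gene density differed. The centres of 39 other genes lay there for MCM7, 42 for POLA2 and none for RFC3, whose window is its own body.

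Between genotypes, ORC5 and CHEK1 were copied earlier in CFAP20-KO cells relative to the median gene, and none of the 17 genes that could be tested in their own windows was called later. For this comparison each plate gave a WT and a CFAP20-KO library, timing was centred on the library's median gene, and 10 molecules were required in all 16 libraries, which 17 of the 46 passed. With limma, 2 of the 17 were earlier in CFAP20-KO and 0 later, where 12.2% and 5.87% of 6997 genes were, a share close to that of all genes. The median gene here is that of these 6997 genes, and it lay later than that of the 16843 genes timed by plate. Uncentred, it was at 0.370 ± 0.0406 in CFAP20-KO and 0.345 ± 0.0332 in WT (SD, n = 8). Its difference within a plate ran from -0.0324 to 0.115 with a mean of 0.0256 ± 0.0459, untested. In windows of at least 200 kb (18429 genes) it was later in CFAP20-KO on every plate. It ran there from 0.1735 to 0.2811 in WT and from 0.2087 to 0.3576 in CFAP20-KO, also untested.

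ORC5 had uncentred timings of 0.486, 0.535 and 0.609 in WT (lowest, median and highest plate) and 0.207, 0.388 and 0.564 in CFAP20-KO. The WT plates were tightly grouped, those of CFAP20-KO reached from early DNA into the WT range, and the groups overlapped. After centring the difference was -0.189 ± 0.0394 (SE; limma adjusted p = 0.00186), lower in CFAP20-KO on 8 of 8 plates. It rested on 527 WT and 235 CFAP20-KO molecules. Bins of 200 kb were centred on the same median of 6997 genes, not on that of the windows of at least 200 kb. The difference in them was -0.0614, -0.0774, -0.192 and -0.150 at -100, 100, 300 and 500 kb. It was below 0 in 5 of 20 bins in all, a count that depends on this centring.

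CHEK1 had 0.347, 0.448 and 0.549 in WT and 0.206, 0.293 and 0.517 in CFAP20-KO, again with overlapping groups. Its centred difference was -0.148 ± 0.0383 (SE; limma adjusted p = 0.00960), lower on 8 of 8 plates, from 314 and 203 molecules. In 200 kb bins, centred as for ORC5, it was -0.126, -0.139 and -0.107 at -300, -100 and 100 kb, lower on 8, 8 and 7 of 8 plates. Further off it was -0.104, -0.119 and -0.0934 at -1900, -1700 and -1300 kb, and bins at 1300 and 1500 kb went the other way with 0.121 and 0.0866. CHEK1 could not be tested with cells of at least 5000 molecules, with equal weight per cell or with 20 molecules required per library. In each of these settings 8 of the 46 genes were tested. ORC5 had -0.132 (limma adjusted p = 0.000552), -0.105 (adjusted p = 0.0221) and -0.179 (adjusted p = 0.000595) in them.

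Of the other genes called later than the median gene, 4 had enough molecules, and none was called between genotypes. RRM1 differed by -0.0327, lower in CFAP20-KO on 6 of 8 plates. ORC4 differed by 0.00240, RPA3 by 0.0422 and RFC3 by 0.0529, with plates on both sides of 0 in each. In windows of at least 200 kb all 46 genes could be tested, and 14.1% of all genes were called earlier in CFAP20-KO and 2.19% later. CHEK1 (-0.150, limma adjusted p = 0.000915), ORC5 (-0.147, adjusted p = 0.0127) and ORC6 (-0.0650, adjusted p = 0.0377) were then earlier relative to the median gene. Uncentred, ORC6 had 0.1645, 0.2272 and 0.3186 in WT and 0.1648, 0.2085 and 0.3103 in CFAP20-KO. Its uncentred means were 0.230 and 0.220, and the median gene in these windows was later in CFAP20-KO on every plate. ORC6 also passed in its own window without plate 4 (-0.0965, adjusted p = 0.0298). POLD1 was later in the 200 kb window by 0.133 (adjusted p = 0.0432), with 0.170, 0.350 and 0.472 in WT and 0.388, 0.560 and 0.674 in CFAP20-KO. With 20 molecules required per library, RIF1 was later by 0.0974 (adjusted p = 0.0247).

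**Figure D4:**
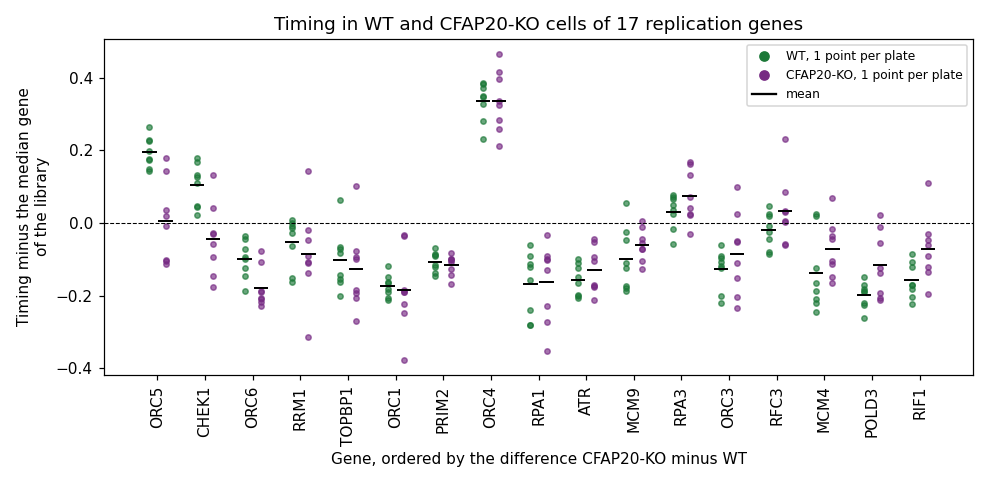
Timing minus the median gene of the library (vertical axis, 0 is the median of the 6997 genes tested) in WT (green) and CFAP20-KO (purple). The 17 genes with enough molecules are ordered by the difference. Points are the 8 plates of each genotype and lines their means; ORC5 and CHEK1 are lower in CFAP20-KO on 8 of 8 plates, and the means of ORC4 differ by 0.00240.

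In their own windows, none of the 45 genes tested was called different between genotypes in the share of label it took. Molecules per window were summed by library, scaled by the library total and tested with limma voom; CDT1 held too few to be tested. 0 were lower and 0 higher in CFAP20-KO, where 0.944% and 0.0984% of 17274 genes were, and 2 of the 45 had an unadjusted p under 0.05, against 11.7% of all genes. limma with a trend on log2 CPM values also called 0, where 217 of 17274 genes were lower and 18 higher. The median log2 difference was -0.12 for these genes and -0.09 for all genes. ORC5 differed by -0.52 ± 0.21 (SE, adjusted p = 0.278), with 32.1, 36.0 and 43.98 CPM (molecules per 1000000 of the library) in WT, lowest, median and highest, and 17.5, 26.9 and 32.4 in CFAP20-KO. The groups overlapped only at the lowest WT and the highest CFAP20-KO plate.

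Wider windows, which hold more molecules, gave calls: MCM8 and ORC5 at 200 kb, and at 2 Mb these with PCNA, GINS1, RFC1 and TOPBP1. In windows of at least 200 kb, MCM8 differed by -0.78 ± 0.17 on the log2 scale (SE; limma adjusted p = 0.00162) and ORC5 by -0.57 ± 0.16 (adjusted p = 0.0218), where 3.57% of all genes were lower and 0.274% higher. In windows of at least 2 Mb, added after the data had been seen, 6 genes were lower and 0 higher, where 7.15% and 0.939% of all genes were. PCNA had 676.5, 784.6 and 916.8 CPM in WT and 349.9, 430.7 and 509.3 in CFAP20-KO, a log2 difference of -0.89 ± 0.09 (adjusted p = 6.41e-08). MCM8, whose 2 Mb window overlaps that of PCNA, differed by -0.72 ± 0.08 and GINS1, the other gene of the 46 on chromosome 20, by -0.43 ± 0.07, and for these 3 of the 46 genes all CFAP20-KO plates lay below all WT plates. The same held for 4.18% of all genes, and 0.11% had all CFAP20-KO plates above. ORC5 followed with -0.34 ± 0.07, RFC1 with -0.31 ± 0.09 and TOPBP1 with -0.20 ± 0.06. MCM7 and RPA3, on chromosome 7 like ORC5, differed by -0.15 ± 0.12 and 0.03 ± 0.07, and GINS3 by -0.23 ± 0.09, none of them called.

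**Figure D5:**
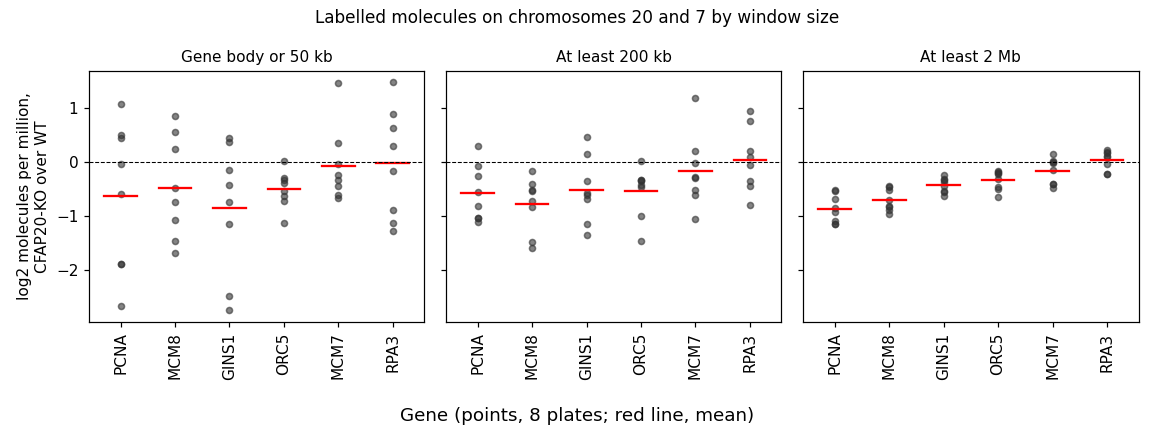
log2 ratio of CPM, CFAP20-KO over WT (vertical axis, dashed line at 0), for 6 genes of chromosomes 20 and 7 in the gene window, windows of at least 200 kb and at least 2 Mb. Points are the 8 plates and red lines their means; the plates draw together as windows widen, and PCNA, MCM8, GINS1 and ORC5 lie below 0 on 8 of 8 plates in the widest.

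Neighbouring pathways spread over the same range. Of 40 other replication factors 31 were timed, with a median of 0.229, 10 called earlier and 9 later. POLD2, another subunit of polymerase delta, and RAD1, of the checkpoint clamp, were earliest at 0.160 and 0.162. MMS22L, which acts at broken forks, and POLA1, the catalytic subunit of polymerase alpha on the X, were latest at 0.711 and 0.678, while POLA2 lay at 0.233. Of 26 cyclin, E2F and nucleotide genes 24 were timed (median 0.223, 9 earlier, 8 later), from E2F1 at 0.149 and TK1 at 0.162 to CCNE1 at 0.519 and E2F5 at 0.524. Of 50 repair and Fanconi genes 46 were timed (median 0.234, 9 earlier, 16 later), from XRCC3 and FANCE at 0.181 to FANCB at 0.709 and FANCF at 0.813.

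Between genotypes, these lists gave calls in both directions. Of 12, 10 and 24 genes tested, in the order above, 1, 0 and 4 were earlier in CFAP20-KO and 2, 1 and 1 later. Of all genes tested, 12.2% were earlier and 5.87% later. MRE11, a nuclease of double-strand break repair, was earlier in CFAP20-KO (difference -0.258 ± 0.0354 SE, limma adjusted p = 3.87e-05), and WRN (-0.164), LIG4 (-0.198) and POLQ (-0.154) were earlier too. BLM, a helicase, was later by 0.0933. CDC7, the kinase that fires origins, was later by 0.160 ± 0.0337 (adjusted p = 0.00207), MTBP, which also acts in firing, by 0.103, and E2F5 by 0.216. MMS22L was earlier (-0.0826, adjusted p = 0.0199), a call lost with plate as a block (adjusted p = 0.0563). No gene of the 3 lists was called in molecules per window by limma (0 of 32, 0 of 24 and 0 of 49).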

How the data were processed

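Per the file headers, each deposited row is 1 sequenced fragment with its cell, genotype, base-pair position and signed length, and no other value was used. The authors mapped to GRCh38, per the submitters' processing notes; the aligner, any filter and any removal of duplicates are not given in these sources. Each fragment was taken as 1 molecule, although 3.44% to 4.79% per plate shared cell, position and direction with another, so precision covers counting error only in part. No 2 plates held the same data (chi-squared per degree of freedom 11.2 to 68.6 over 28 pairs).

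Cells with at least 1000 autosomal molecules were ranked along the leading axis from correspondence analysis of 500 kb bins (18.8% of the variation; bins under 0.1 of the median left out). The order from odd and from even chromosomes had a Spearman correlation of 0.985. Gene positions came from a RefSeq table of GRCh38.p14; overlapping genes share molecules. Tests used limma 3.58.1 (R 4.3.3, Python 3.11.15) over all genes with Benjamini-Hochberg adjustment and a threshold of 0.05: timing needed 10 molecules per plate (or library), molecules a mean of 10 per library. As planned, positions were summed to molecules and tested with limma voom. The log2 ratios per plate in the plot of molecules by window carry a pseudocount of 0.05 CPM.

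Per the labels' titles a plate holds both genotypes, which pairs its libraries. Their deviations from the genotype means correlated by 0.0311 on average (-0.0351 to 0.0922; -0.00445 between plates), and in 2 of 8 cases most strongly within the plate. On simulated data, 28% of 2-fold differences in molecules were called (16976 genes). Of genotype timing differences of 0.15, 62.5% were called (6997 genes), and 46% of timing differences of 0.1 from the median gene (16843 genes). Molecules were simulated at the depth of each library, with a fixed spread that was not estimated from these data. Timing was simulated as normal noise with each gene's own SD over libraries or plates, so these rates are a rough guide only.

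All members could be named. Values by plate were fixed for the 4 earliest and 4 latest, POLD1, CHEK1, those called between genotypes, PCNA, MCM8, MCM7, ORC5 and GINS3, and of the other lists the 2 earliest, 2 latest and those called between genotypes. Further members were given the same detail after their values were seen. The members and the lists were chosen with earlier results of these data known. Alternatives covered the cell minimum, window, filter, repeated fragments, cell order, bin size, cell weight, scaling, test, plates left out and plate as a block.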

Additional observations from a re-analysis of the deposited data

Results flagged for a closer look

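Plates were examined for single values far from the rest in 48 sets of 8 plates, where chance flags about 1 in 20 such sets. 2 stood apart. The timing of MCM2 was 0.2718 on plate 7, where the next highest plate had 0.2001. The timing of RFC1 was 0.3417 on plate 8, where the next highest had 0.1965. Both genes were called earlier than the median gene with and without these plates.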

How the results depend on the processing

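With each plate left out in turn, 16 to 17 genes were earlier than the median gene and 7 to 8 later, 22 to 24 earlier than their flanks and 2 to 3 later, 2 to 3 earlier in CFAP20-KO and 0 later, and 0 differed in molecules. Over all genes, 4901 to 5362 of 16845 to 17326 were earlier than the median gene and 5976 to 6268 later. Against flanks, 6989 to 7378 of 16842 to 17323 were earlier and 2544 to 2682 later. In CFAP20-KO, 676 to 927 of 7080 to 8395 were earlier and 298 to 392 later. In molecules, 85 to 139 of 16869 to 17470 were lower and 5 to 26 higher. With 20 molecules required, 15 of 29 genes were earlier than their flanks, where 5508 of 11712 over all genes were. With equal weight per cell, 31 of 38 genes were earlier than their flanks and 1 later, where 66.4% and 16.8% of all genes were, RRM1 changed to -0.0233 against the median gene and ORC5 to -0.0205 against its flanks; the cause was not tested. Molecules were lower in CFAP20-KO in 2 genes in windows of at least 200 kb and 6 in windows of at least 2 Mb, where 3.57% and 7.15% of all genes were. Between genotypes, 1 of 8 genes tested was earlier at the minimum of 5000 molecules, with equal weight per cell and with the filter of 20. Fewer were tested in each, and over all genes 675 of 4306, 292 of 3597 and 436 of 3098 were earlier. In the 200 kb windows 1 was later, where 404 of 18429 over all genes were. With the filter of 20 it was also 1, where 388 of 3098 were. With plate as a replicate block, 2 genes were earlier in CFAP20-KO, 0 later and 0 differed in molecules, and the block changed no other call among the 46. Over all genes with the block, 807 of 6997 were earlier and 359 later, and 207 of 17274 were lower in molecules and 35 higher. With the minimum of 5000 molecules, 27 of 40 genes were earlier than the median gene and 7 later, where 44% and 42.4% of all genes were. Of the settings run for single called genes, 30 of timing and 12 of local timing lost the call in the same direction, and 0 of 31 between genotypes did. The 31 leave out CHEK1 at the minimum of 5000 molecules, with equal weight per cell and with the filter of 20, where it could not be tested. Depth limits these values, since timing rests on 151 to 2915 molecules per gene over all plates.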
